A study of Mus musculus with 4 samples.

Results

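The middle block of mouse chromosome 15 around Myc was examined here in 4 liver tumours by array comparative genomic hybridization. Its members were all non-control array probes on chromosome 15 that start from 33 Mb to below 76.5 Mb on the mouse build mm9, a stretch that largely matches human 8q22 to 8q24. The rule used position only and found 2628 of the 169093 probes with a position on a chromosome. They ran from 33002561 to 76489804 with a median spacing of 11369 bp, and the widest gap between neighbouring probes was 0.185 Mb. A gene name stood beside 1588 of them, for 268 different names. The files give no exon, intron or UTR, so a probe is placed here by its position and its gene name.

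The 4 tumours came from 4 individual C57BL/6J mice with the genotype Trp53-/-, described in the series title as a liver-specific loss. The sources used here do not name the allele or the Cre driver, and they give no age. All animals were male and untreated. The reference on every array was spleen DNA pooled from 3 sex-matched littermates, which the labels also give as Trp53-/-, whereas the labelling protocol names liver. The reference was therefore 1 pool, it carries no spread of its own in any test, and no tumour with intact Trp53 is among the samples used here. Tumour DNA carried Cy5 (red) and reference DNA carried Cy3 (green), and each value is the log2 of tumour signal over reference signal, with the median autosomal probe of that array set to 0.

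In this assay both DNAs compete for the same oligonucleotides. A stretch of ratios above 0 is read as more copies in the tumour than in the reference, relative to the median autosomal probe of that array. A single probe above 0 is not a gain by itself, since probes scatter to both sides of that median. Myc encodes a transcription factor that drives cell growth and ribosome production, and human liver cancers often carry extra copies of 8q with MYC. Such a gain can span a whole chromosome arm or can be a focal amplification of the gene and its neighbours, among them the noncoding gene Pvt1, and the array can tell these apart by how far the raised ratio extends.

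The probes on which single-site readings rest are shown as the files list them, with the strand not given there. Capitals mark runs of at least 4 identical bases, and the chosen probes are the Myc probe, those that stood alone against their neighbours, and the most deviating probe of the highest and of the lowest stretch.
Myc probe, chr15:61818043-61818102: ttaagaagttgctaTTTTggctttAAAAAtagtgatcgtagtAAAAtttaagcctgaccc
Pgcp probe, chr15:33312301-33312360: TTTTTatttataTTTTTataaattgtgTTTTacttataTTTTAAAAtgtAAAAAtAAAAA
Unnamed probe A, chr15:43218775-43218834: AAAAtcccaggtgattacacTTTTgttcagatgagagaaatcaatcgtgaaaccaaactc
Unnamed probe B, chr15:75816209-75816268: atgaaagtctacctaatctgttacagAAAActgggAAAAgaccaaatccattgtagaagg
Lypd2 probe, chr15:74563390-74563435: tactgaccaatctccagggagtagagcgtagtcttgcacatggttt
Atad2 probe, chr15:57926619-57926678: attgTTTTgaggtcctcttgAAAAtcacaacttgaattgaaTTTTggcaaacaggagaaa
The Pgcp probe is the extreme in composition, with 6.67% G and C bases, made up largely of A and T runs. The Myc probe holds 31.7% G and C, the Atad2 probe 33.3%, and the Lypd2 probe 47.8%. The block as a whole had an average probe GC content of 36.6%, against 36.5% on the other autosomes, and 68.9% of its probes held such a run, against 70.5%.

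The arrays differed in noise. From differences between neighbouring probes the log2 noise SD came to 0.12, 0.37, 0.15 and 0.15 in tumours 1 to 4. The scanner software had marked this spread as out of range for tumour 2. At least 98.9% of block probes were well above background in each channel, none was saturated, and 1 was left out as flagged on tumour 3's array. Slide 1 carried tumours 1 and 2, slide 2 tumours 3 and 4. Over the autosomal probes the arrays correlated with r between 0.14 and 0.50, and without chromosome 15 with r between 0.10 and 0.48, so no pair correlated negatively. This alone cannot fix the direction of an array, since the ratio rose with probe GC on all 4. With 4 arrays, their number limits how precise any mean can be.

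The whole block was raised in all 4 tumours. Averaged over its probes, tumours 1 to 4 read 0.21, 0.26, 0.14 and 0.25 on the log2 scale. Tumour 3 was the lowest. Tumour 2 was the highest with the processing used here, though not in every alternative setting. No tumour lay at or below 0, and each slide held a lower and a higher tumour. The average was 0.21 ± 0.055 (SD, n = 4), a linear ratio of 1.16 with a range of 1.1 to 1.2. The exact two-sided sign-flip permutation test against 0 gave p = 0.125, the smallest that 4 tumours allow, and 0.5 after Benjamini-Hochberg adjustment over 6 such values. Single probes showed the same shift, with 96.8%, 77.2%, 84.0% and 93.3% of block probes above 0 in tumours 1 to 4. On the other autosomes that share lay between 48.0% and 48.8%. In bulk DNA a small copy change in many cells and a larger one in few cells cannot be told apart.

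The shift was seen in the tumour channel. Relative to the autosomal median of the same channel, the red signal of the block stood at 0.29, 0.22, 0.16 and 0.26 in tumours 1 to 4. The green signal of the same probes stood at 0.073, -0.055, 0.010 and 0.0045. The red level was therefore above the green level on every array, and in tumour 1 the reference signal itself was also slightly high.

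Average differences between the block and the rest of its chromosome were smaller than the spread between tumours. Block minus the proximal part of chromosome 15 (1780 probes) was 0.0037, 0.014, 0.0016 and -0.011 in tumours 1 to 4, averaging 0.0021 ± 0.010 (SD, n = 4; exact sign-flip permutation p = 0.625). Block minus the distal part (2164 probes) was -0.0050, -0.098, -0.0017 and 0.036, averaging -0.017 ± 0.057 (SD, n = 4; exact sign-flip permutation p = 0.625). Tumours 2 and 4 set that spread, in opposite directions. Without tumour 2 the difference to the distal part was 0.0097 and that to the proximal part -0.0020, each opposite in sign to its average over 4 tumours.

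Divided into 15 bins of 3 Mb, of which the last was cut at the block's end, the gain was continuous. Each bin held 125 to 225 probes, and all 15 were above 0 in all 4 tumours. The average over tumours was lowest, 0.17 ± 0.070 (SD, n = 4), at 45 to 48 Mb, which holds the proximal probes of Csmd3. It was highest, 0.25 ± 0.12, at 72 to 75 Mb, which holds Ptk2 and most of the Ly6 genes. With limma over all 810 autosomal bins, each of the 15 block bins passed as higher, with Benjamini-Hochberg adjusted p from 0.000564 to 0.00258. None of the 15 passed as lower, against 7.41% of all bins. Over the autosomes 4.32% of bins passed as higher, and all 35 of them were the bins of chromosome 15, so the block's bins are part of a chromosome-wide set.

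**Figure D1:**
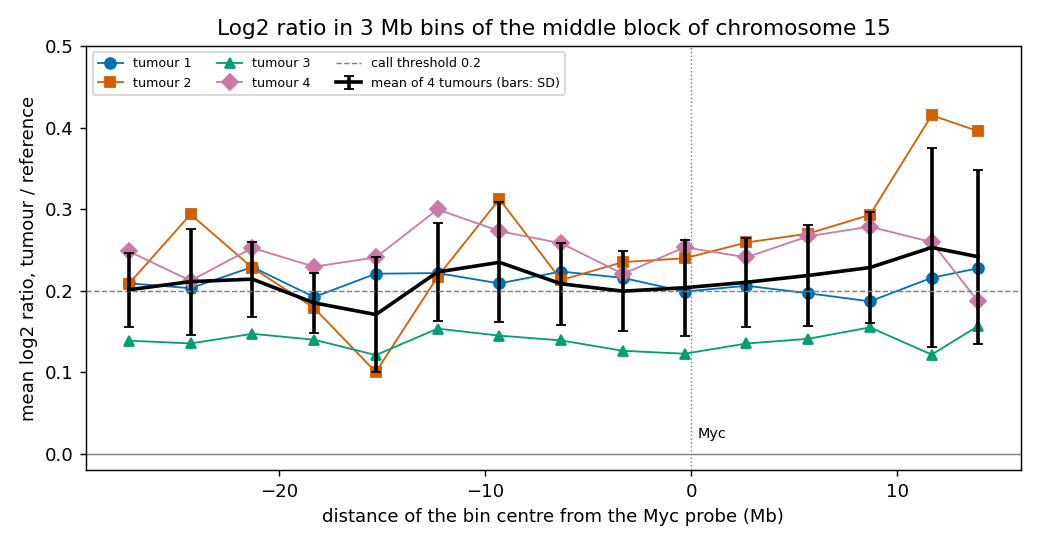
Mean log2 ratio of tumour over reference (vertical axis) of the 15 bins of the block against the distance of the bin centre from the Myc probe in Mb (horizontal axis), as 1 coloured line per tumour and a black line for the mean of 4 tumours with SD bars. All points lie above 0, tumour 3 stays between 0.12 and 0.16, and tumour 2 climbs to 0.41 and 0.40 in the last bins.

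The tumours differed in how even the block was. In tumour 1 the bins ran from 0.19 to 0.23, and in tumour 3 from 0.12 to 0.16. Their SD over bins was 0.013 and 0.012, where the noise between neighbouring probes would give 0.0093 and 0.011. Tumour 3 was thus near the noise value and tumour 1 above it. In tumour 4 the bins ran from 0.19 at 75 to 76.5 Mb to 0.30 at 48 to 51 Mb, with an SD of 0.028 against 0.012 from noise. In tumour 2 they ran from 0.10 at 45 to 48 Mb to 0.41 at 72 to 75 Mb, with an SD of 0.079 against 0.028. The tumours shared little of this order, and the 15 bin values correlated between pairs of tumours with r from -0.17 to 0.23. Set against the rest of the block, 1 bin lay on the same side in all 4 tumours, that at 63 to 66 Mb, by -0.0039 ± 0.0023 (SD, n = 4). The smallest adjusted p of the 15 comparisons was 0.721 (exact sign-flip permutation test).

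A bin was called gained in a tumour at 0.2 or more, and 11, 13, 0 and 14 of the 15 bins reached that in tumours 1 to 4. Over all 810 autosomal bins the shares called were 3.33%, 4.2%, 0% and 3.7%. Tumour 3 thus had no called bin although each of its 15 bins was above 0.12. Of the 775 bins on the other autosomes, 0, 33, 0 and 1 reached the lowest block bin of tumours 1 to 4. The highest bin elsewhere was 0.13, 0.29, 0.11 and 0.43, so in tumours 1 and 3 the block bins did not overlap the other autosomes at all. In tumour 4 the overlap came from 1 bin, and of the 33 in tumour 2 all but 1 lay below its block mean.

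**Figure D2:**
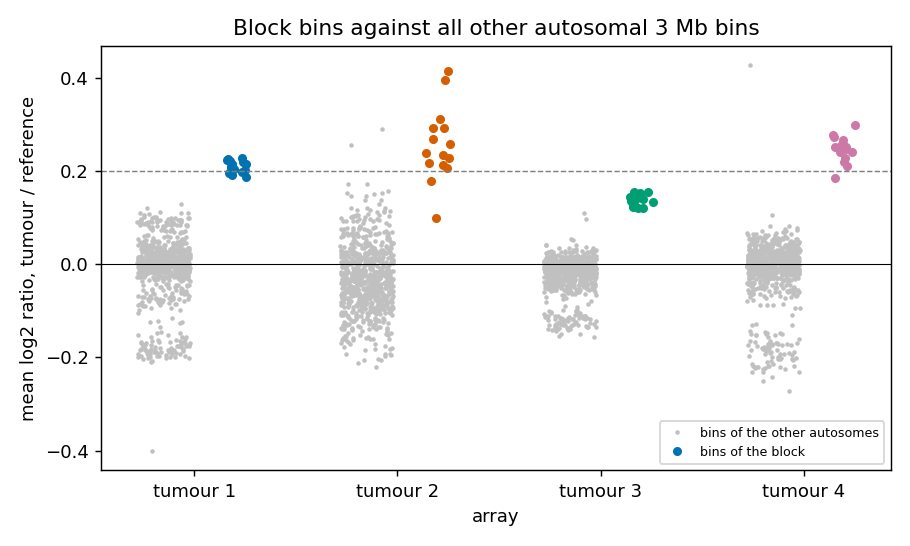
Mean log2 ratio (vertical axis) of the 15 block bins (coloured points) and of the 775 bins on the other autosomes (grey points) for each tumour's array (horizontal axis, sideways scatter for legibility only), with the call threshold of 0.2 dashed. Coloured points lie above every grey point in tumours 1 and 3 and overlap some in tumours 2 and 4.

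The trend along the block was steepest in tumour 2. The slope towards the distal end was -0.00014, 0.036, -0.00026 and 0.00098 log2 units per 10 Mb in tumours 1 to 4, averaging 0.0093 ± 0.018 (SD, n = 4; exact sign-flip permutation p = 0.5). Segmentation, an exact search for the steps that best divide a chromosome, placed a step in tumour 2 between 66786716 and 66810122. The segment before it averaged 0.24 and the segment after it 0.36, and both extend beyond the block. The last 2 bins of tumour 2 lay 0.17 above its other block bins. Their probes held 37.5% and 38.5% G and C against 36.0% to 36.8% in its other bins, and on tumour 2's array the ratio over the other autosomes climbed by 0.41 per 10 points of GC, against 0.036 to 0.065 in the others. With that trend removed the excess was 0.10.

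Around Myc itself the block showed no local maximum shared by the tumours. The 3 Mb bin with Myc (60 to 63 Mb, 133 probes) read 0.20, 0.24, 0.12 and 0.25 in tumours 1 to 4, averaging 0.20 ± 0.059 (SD, n = 4), which ranked 11 of 15 bins. Against the rest of the block it was -0.013, -0.022, -0.016 and 0.0068, that is, lower in 3 tumours and higher in tumour 4. The average difference was -0.011 ± 0.012 (SD, n = 4; exact sign-flip permutation p = 0.25), and its sign turned with normexp on the raw signals (0.0090) and with medians over probes (0.0043). In tumour 4 the Myc bin stood above both adjacent bins, which read 0.22 and 0.24. The direction also depended on the width. The 1 Mb bin with Myc (46 probes) differed from the block mean by 0.0032, 0.0014, -0.025 and 0.015 in tumours 1 to 4, above it in 3. Its average difference was -0.0013 ± 0.017 (SD, n = 4).

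Myc was covered by 1 probe, and that probe and its neighbours went different ways. The Myc probe, shown above, read 0.11, 1.05, 0.21 and 0.51 in tumours 1 to 4, averaging 0.47 ± 0.42 (SD, n = 4). Tumours 2 and 4 were far higher than tumours 1 and 3. The 5 probes on each side of it, at distances from -217 kb (proximal) to 33.2 kb (distal), read on average 0.24, -0.050, -0.034 and 0.13. In tumour 1 all 10 of these were above 0, and in tumours 2, 3 and 4 the numbers were 5, 4 and 8. The high Myc reading of tumour 2 thus stood on a single oligonucleotide between 10 flanking probes that averaged -0.050. Computed instead from the raw signals with normexp background correction, without the deposited dye normalization and detrending, the same probe read -0.30, 0.28, -0.14 and -0.15, an average of -0.080. Tumour 2 stayed above 0 and the other 3 tumours turned negative.

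The 11 probes centred on Myc (61601392 to 61851272) differed from the block mean by 0.019, -0.21, -0.15 and -0.080 in tumours 1 to 4. The average was -0.10 ± 0.098 (SD, n = 4; exact sign-flip permutation p = 0.25), below the block in 3 of 4 tumours. Its size depended on the settings, with -0.26 from normexp on the raw signals, -0.050 with the intensity trend of each array removed, -0.051 over 5 probes and -0.045 over 21 probes. Within the block 2.10% of 11-probe windows were lower, and on the other autosomes 2.60% lay lower against their own chromosome. The next named transcript distal to Myc on the array was AK043790 (11 probes, 61887685 to 62074330). RefSeq's mouse assembly GRCm38 lists Pvt1 as the gene next to Myc, but the array bears no probe of that name, so no value is given for Pvt1. AK043790 read 0.17, 0.31, 0.12 and 0.20, averaging 0.20 ± 0.077 (SD, n = 4), near the block mean in every tumour. AK090048, the transcript after it (6 probes), averaged 0.16 ± 0.040 (SD, n = 4). Neither carried a peak.

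**Figure D3:**
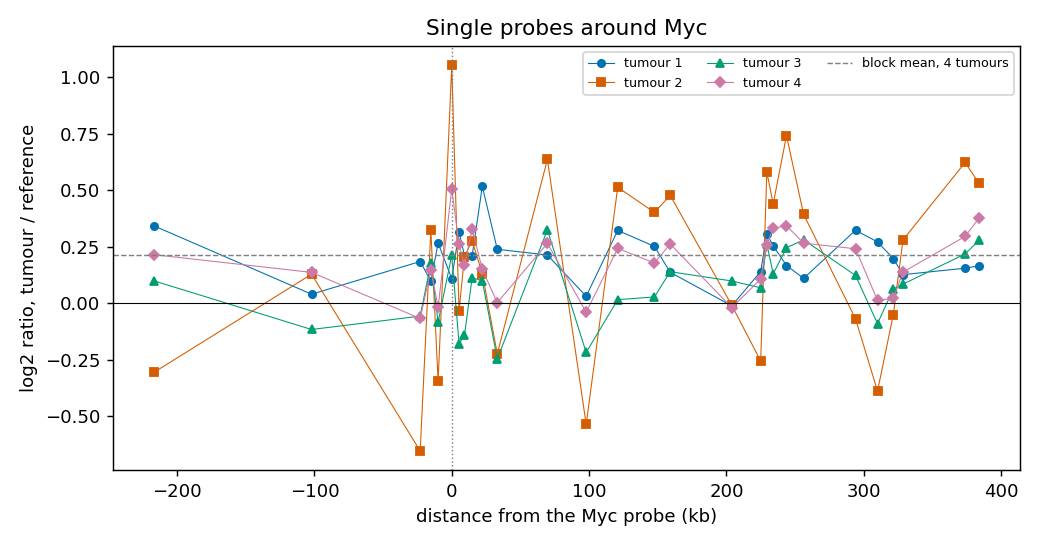
Log2 ratio (vertical axis) of single probes around Myc against the distance from the Myc probe in kb (horizontal axis), with 1 coloured line per tumour and the block mean over tumours dashed. The Myc probe stands at 1.05 in tumour 2 and 0.51 in tumour 4, while its direct neighbours on both sides lie at or below 0.26 in those tumours.

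No focal peak or loss was found inside the block by segmentation. A focal segment had to hold at least 5 probes, span under 3 Mb and differ by 0.2 or more from the block mean of its tumour. There were 0 such segments in the block in each of the 4 tumours, against 17, 2, 9 and 15 on the other autosomes, which took in 0.18% of the probes there. A new segment also had to outweigh a penalty that rose with the noise of the array. At that penalty 5 probes differing by just 0.2 would not be split off on any array. On tumour 2's noisy array only long or strong changes could be found. The 0 thus does not exclude short or small ones. The chromosome was divided at few places within the block, with 3, 2, 3 and 5 segments touching it. Lowering both the penalty for a new segment and the required deviation (to 0.1) gave 1, in tumour 4. This dip ran over 21 probes from 57742410 to 57934116, lay at -0.18 from the block mean and covered Zhx1, a zinc finger and homeobox gene, and part of Atad2, which encodes a bromodomain protein.

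Running means of 11 consecutive probes gave a finer view. Averaged over tumours, the 2618 windows of the block had an SD of 0.052, against 0.054 on the other autosomes, and stayed between -0.18 and 0.23 of the block mean. Windows at least 0.2 above the block mean numbered 0, 201, 0 and 0 in tumours 1 to 4, against 0.227%, 7.72%, 0.155% and 0.335% of the windows on the other autosomes. Windows at least 0.2 below it numbered 0, 178, 0 and 15, against 0.309%, 7.02%, 0.113% and 0.333%. In 0 windows did 2 or more tumours exceed the block by 0.2, against 0.19% on the other autosomes. In 3 windows 2 tumours lay at least 0.2 below it, against 0.198%. These 3 overlapped each other from 57831900 to 57934116, and the tumours were 2 and 4 in each.

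**Figure D4:**
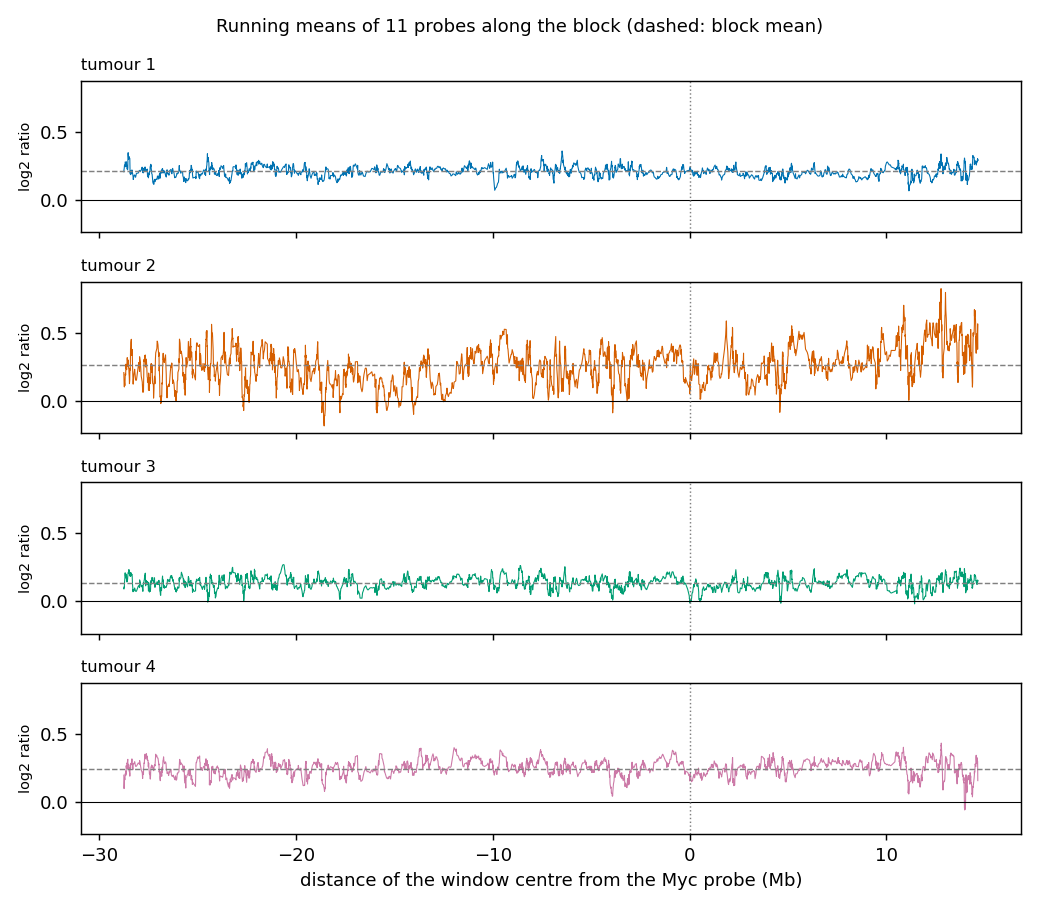
Running mean log2 ratio of 11 probes (vertical axis) along the block against the distance of the window centre from the Myc probe in Mb (horizontal axis), 1 panel per tumour on a common scale, with the block mean dashed. Tumour 2 has the widest swings, with windows from -0.45 to 0.56 relative to its block mean, and none of the panels peaks at Myc.

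The highest windows lay in the distal Ly6 cluster, a group of genes for small surface proteins held to the membrane by a lipid anchor. The highest, from Psca to BC055822 (74547457 to 74604023), read 0.34, 0.82, 0.21 and 0.39 in tumours 1 to 4, on average 0.23 ± 0.23 (SD, n = 4) above the block. All 4 tumours were above their block mean there, and tumour 2 supplied most of the excess, which was 0.11 without it. The window from Ly6e to D86232 (74786560 to 74872256) read 0.27, 0.80, 0.23 and 0.32, on average 0.19 ± 0.23 above the block, 0.077 without tumour 2 and 0.10 with the intensity trend removed. Another stretch, inside 1810044A24Rik (72609202 to 72734163), the array's name for Trappc9, read 0.26, 0.67, 0.18 and 0.40, an excess of 0.17 ± 0.17, or 0.083 without tumour 2 and 0.28 with normexp on the raw signals. The probes of the highest window held 41.4% G and C, and with the GC trend of each array removed its excess was 0.15.

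The lowest window (57857969 to 57942712) lay at Zhx1 and Atad2 and mostly inside the dip of tumour 4, so both rest largely on the same probes. It read 0.18, -0.089, 0.0099 and 0.047 in tumours 1 to 4, on average -0.18 ± 0.13 (SD, n = 4) against the block, and below it in all 4. Its probes held 34.4% G and C, and with the GC trend removed the difference was -0.15, with tumour 2 left out -0.12. With the intensity trend removed it was -0.10, and with normexp on the raw signals -0.32. The window at AK148391 (43130766 to 43308522) read 0.15, -0.19, 0.15 and 0.10, a difference of -0.16 ± 0.20, or -0.065 without tumour 2. The window from Chrac1 over Eif2c2, which encodes Argonaute 2, into Ptk2 (72923887 to 73062291) read 0.067, 0.0042, 0.10 and 0.076. Its difference was -0.15 ± 0.091, or -0.24 with normexp on the raw signals. It was -0.12 without tumour 2, -0.14 with the GC trend removed and -0.10 with the intensity trend removed. These windows are extremes of the block picked for their values and carry no test. The part of probe composition in them was not tested beyond the values given.

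Probes that stood alone were rare outside tumour 2. At least 1 log2 unit from the block mean lay 1, 41, 1 and 2 probes in tumours 1 to 4, against 0.0518%, 1.38%, 0.0387% and 0.0872% of the probes on the other autosomes. No probe deviated so in 3 tumours. The A- and T-rich Pgcp probe read 1.25, -0.25, 0.12 and -0.46, and its neighbours on both sides in tumour 1 read 0.27 and 0.20. Unnamed probe A read -0.027, -2.04, 0.29 and -1.09, so that it was low in tumours 2 and 4 only. Unnamed probe B read 0.27, 0.33, 1.5 and -1.57, high in tumour 3 and low in tumour 4, with neighbours of 0.17 and -0.033 in tumour 4. Each was a segment of 1 probe in at least 1 tumour, and flanking probes did not follow it.

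Gene by gene, the shift was widespread. Of 267 named genes 212 (79.4%) were above 0 in all 4 tumours, against 12.7% of 20499 genes on the other autosomes. At 0.2 or more in at least 3 tumours were 122 (45.7%), against 1.04% there. The median gene mean was 0.22 in the block and -0.0089 elsewhere. The 42 genes with at least 10 probes were all above 0 in all tumours and stayed between 0.15 and 0.29. With limma over all 13389 autosomal genes of at least 2 probes, 0 of the block's 170 passed at an adjusted p under 0.05, as did 0% of all genes. At an unadjusted p under 0.05 there were 144 of the 170 and 2540 of the 13389 (19%). Without tumour 2, the noisiest array, 125 of the 170 passed as higher, against 3.11% of all genes, whereas without tumour 1, 3 or 4 the number was 0 each time. The counts without tumour 2 given for gene groups below are likewise 0 without any other tumour. They stand beside 73.5% of the block's tested genes and 3.11% of all genes. Group counts above 0 in all tumours stand beside the 79.4% and 12.7% given here. With the slide as a random block in the limma fit of all 4 tumours, 123 of the 170 passed, against 3.54% of all genes. The correlation estimated within a slide was negative, -0.34, which narrows the standard error of the mean.

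**Figure D5:**
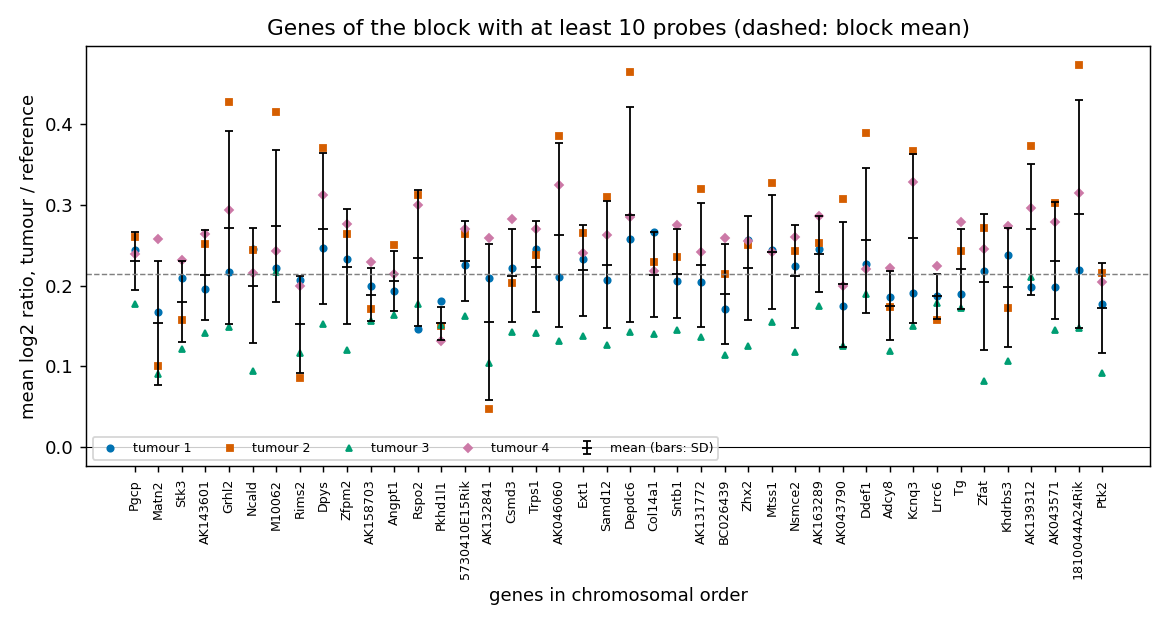
Mean log2 ratio (vertical axis) of the 42 block genes with at least 10 probes, in chromosomal order (horizontal axis), as coloured points per tumour and black means with SD bars (n = 4), and the block mean dashed. Every point lies above 0, and the means run from 0.15 for Rims2 to 0.29 for 1810044A24Rik.

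The neighbours of Myc gave no sign of a step at the gene. The list for this stretch held 11 genes, Myc itself included, and 9 were on the array, with a median of 0.21. Of these, 6 were above 0 in all tumours, Myc among them. With limma 0 of the 6 tested, which leave out Myc, passed (5 of 6 without tumour 2). Mtss1, which encodes an actin-binding scaffold, read 0.24, 0.33, 0.15 and 0.24 in tumours 1 to 4. Nsmce2, a SUMO ligase of the SMC5/6 repair complex, read 0.22, 0.24, 0.12 and 0.26. On the far side of Myc, Ddef1 (Asap1, a regulator of Arf proteins) read 0.23, 0.39, 0.19 and 0.22. Adcy8, an adenylyl cyclase, read 0.19, 0.17, 0.12 and 0.22. Of the 5 members with the most probes, 0910001A06Rik (Fam49b, 7 probes) was the lowest at 0.23, -0.071, 0.056 and 0.022, averaging 0.058 ± 0.12 (SD, n = 4).

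Genes of growth and cancer on human 8q22 to 8q24 tracked the block. Of 36 listed, 34 were measured with a median of 0.21, 30 were above 0 in all 4 tumours, and 0 of the 29 tested passed with limma (22 without tumour 2). Angpt1, the ligand of the vascular receptor Tie2, read 0.19, 0.25, 0.16 and 0.21. Trps1, a GATA-type transcription factor, read 0.25, 0.24, 0.14 and 0.27. Ext1, a heparan sulfate polymerase, read 0.23, 0.27, 0.14 and 0.24. With 31, 24 and 23 probes they averaged 0.21, 0.22 and 0.22, beside a block mean of 0.21. Ptk2, the focal adhesion kinase, was lower at 0.18, 0.22, 0.092 and 0.20.

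Among receptors, ligands and kinases of the Hippo, Wnt and growth factor pathways, 9 of 11 were measured with a median of 0.18, and 0 passed with limma (7 of 9 without tumour 2). The Hippo kinase Stk3 read 0.21, 0.16, 0.12 and 0.23. Rspo2, a secreted enhancer of Wnt signalling, read 0.15, 0.31, 0.18 and 0.30. The Wnt receptor Fzd6 read 0.20, 0.40, 0.19 and 0.22, with tumour 2 apart from the rest.

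For chromosome segregation, replication and repair, 10 of 12 listed genes were measured, with a median of 0.20, 9 of them above 0 in all tumours, and 0 of the 9 tested passed (6 without tumour 2). The cohesin subunit Rad21 read 0.19, 0.15, 0.22 and 0.26, and Mtbp, which acts in replication origin firing, read 0.17, 0.15, 0.27 and 0.31. Mtbp was therefore lowest in tumour 2, as was Rad21, although the block mean was highest there with the processing used here. Spag1 read 0.16, 0.20, 0.14 and 0.27, and Nudcd1 read 0.21, 0.35, 0.24 and 0.27. Atad2 was the lowest of the list, at 0.066, -0.23, -0.0026 and 0.11.

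On the list for liver metabolism and secreted liver proteins, 13 of 18 genes were measured, with a median of 0.22. The list was broad, and not all its members, such as Cyp11b1 and Cyc1, are particular to liver. Above 0 in all tumours were 11 of the 13, and 0 of the 9 tested passed (7 without tumour 2). Dpys, an enzyme of pyrimidine breakdown, read 0.25, 0.37, 0.15 and 0.31. Zhx2, a repressor of fetal liver genes such as Afp, read 0.26, 0.25, 0.13 and 0.26, with tumour 3 apart. Enpp2, which encodes the secreted enzyme autotaxin, read 0.17, 0.21, 0.14 and 0.19. Slc30a8 read 0.24, 0.35, 0.099 and 0.32. None of these readings says whether the gene's RNA differed, since only DNA was measured.

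Most of the listed long genes averaged many probes. Of 18 listed, 14 were measured, all 14 above 0 in all tumours, with a median of 0.22. With limma 0 of 14 passed (14 of 14 without tumour 2, beside 73.5% of the block's tested genes and 3.11% of all genes). All 42 block genes with at least 10 probes were likewise above 0 in all tumours. Csmd3, spanned by 78 probes over 1200 kb, read 0.22, 0.20, 0.14 and 0.28. Zfpm2, a cofactor of GATA factors (51 probes), read 0.23, 0.26, 0.12 and 0.28. Samd12 (50 probes) read 0.21, 0.31, 0.13 and 0.26. Trappc9 (1810044A24Rik on the array, 43 probes) varied more between tumours, at 0.22, 0.47, 0.15 and 0.31, averaging 0.29 ± 0.14 (SD, n = 4). Rims2, a synaptic scaffold (50 probes), was lowest at 0.21, 0.086, 0.12 and 0.20, averaging 0.15 ± 0.060 (SD, n = 4), with tumour 2 well under its block mean.

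The Ly6 family had the highest median of the lists, 0.40, over 10 of 16 genes and 11 probes in all. Of these, 9 were above 0 in all tumours, and the exception, Ly6h, was identified from its values. Only Ly6d had the 2 probes a test needed, at 0.33, 0.63, 0.14 and 0.56, and it did not pass (limma adjusted p = 0.0783). Psca read 0.44, 1.07, 0.14 and 0.30, and Lypd2 read 0.031, 1.32, 0.48 and 0.64. Both were highest in tumour 2 and rest on 1 probe each. Ly6k, also on 1 probe, read 0.28, 0.43, 0.28 and 0.31. Per tumour, the family median was 0.29, 0.65, 0.19 and 0.29, so the excess over the block was large in tumour 2 and smaller elsewhere.

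The extremes among genes with at least 3 probes were BC113153, Slc45a4 and Bop1 at the top. Bop1, which acts in ribosome assembly, read 0.33, 1.19, 0.20 and 0.21, and Slc45a4, a solute carrier, read 0.30, 0.81, 0.17 and 0.33. BC113153 read 0.32, 0.96, 0.24 and 0.50. At the bottom were AK145655 (0.069, -0.22, -0.072 and -0.014), Atad2 and Zhx1 (0.22, -0.16, -0.00084 and 0.010). In each of these 6 genes tumour 2 was the extreme tumour on its side. They were picked for their values and carry no test.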

How the data were processed

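Genomic DNA of 4 tumours was hybridized on 4 arrays, each against the pooled reference. Per the file headers, the deposited intensities came from Agilent Feature Extraction 12.0.1.1 with mm9 positions (the submitters' processing notes give 12.0.0). Per the file headers, the authors' processed intensity was background-subtracted, detrended and dye-normalized by a linear factor per channel, and the raw mean and background intensities, used for normexp alone, carry no normalization. To check direction, the deposited log10 ratio was compared with the processed intensities, and at least 99.7% of spots on each array matched within 0.001.

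Log2 of processed red over green was computed per spot, flagged spots were dropped, replicate spots averaged and each array centred on its autosomal median, with no loess or quantile step. Linear dye scaling and centring fix the 0 of each array, so values are relative. All 4 tumours formed 1 group, and p-values test a mean over tumours against 0, judged by the spread between tumours. Values per tumour were tested by exact sign-flip permutation, and all autosomal 3 Mb bins (at least 20 probes) and genes (at least 2 probes) with limma 3.58.1 in R 4.3.3 and Benjamini-Hochberg adjustment. Segmentation was penalised least squares with an exact change point search, with a penalty of 3 times the log of the autosomal probe number times the noise variance. The code was tested on simulated data, and there the segmentation was not required to find peaks at the noise level of tumour 2. That test does not show that the smallest segments meeting the focal definition would be found on any array.

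The block, the 7 gene lists and the tests were chosen with earlier results of these data known. Of 122 list entries 99 were matched, 5 of the genes through synonyms in a RefSeq table of GRCm38.p6, from which no coordinate was used. Genes were named as Myc and Pvt1, the 5 best-covered members per list (fewer where fewer were measured), the 3 highest and 3 lowest genes with at least 3 probes, and genes in the windows described. Genes inside a window that are not named singly are covered by its reading. AK043790 and AK090048 were added as the next named transcripts, and Ly6h after its values were seen. Alternatives were normexp correction (offset 50) of the raw signals, which also drops the deposited dye normalization and detrending, centring on the mode, flagged spots kept, a background filter, medians, removal of GC or intensity trends, array weights, slide as a block, turned signs, other bin sizes, thresholds and segmentation settings, and each tumour left out.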

Additional observations from a re-analysis of the deposited data

Results flagged for a closer look

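In 9 of 87 groups of 4 values examined (10.3%), 1 tumour lay far from the other 3. Chance alone flags about 1 in 20 where groups are unselected and all values share 1 spread. Neither held here, since genes, windows and probes picked for extreme values were among the 87, and the arrays differed in noise. The share flagged therefore cannot be read against 1 in 20. In 8 of the 9 flagged groups the tumour apart was tumour 2. Its array had the widest noise (SD 0.37 between neighbouring probes, against 0.12 to 0.15), and the part of noise in these flags was not tested.

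Tumour 2 was high in the slope along the block, 0.036 log2 units per 10 Mb against -0.00026 to 0.00098 in the others. It was also high in the Wnt receptor gene Fzd6, at 0.40 against 0.19 to 0.22. Lynx1, a Ly6-type gene on 1 probe, read 0.86 against 0.18 to 0.28. Bop1 read 1.19 against 0.20 to 0.33, and the window from Ly6e to D86232 read 0.80 against 0.23 to 0.32.

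Tumour 2 was low at AK148391, where it read -0.27 against 0.15 to 0.23, and in the window that holds it, at -0.19 against 0.10 to 0.15. The Atad2 probe printed in the report read -0.80 against -0.10 to 0.016. Zhx2 was the exception, since there tumour 3 stood apart with 0.13 against 0.25 to 0.26.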

How the results depend on the processing

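The block mean stayed above 0 in all settings run, between 0.20 and 0.24 with each tumour left out in turn, and all 15 bins of 3 Mb passed limma in each setting except those with the sign of tumour 1 or of tumour 4 turned, where 0 passed. With 1 Mb bins 44 passed, of 44. The highest block mean moved from tumour 2 to tumour 4 with centring on the mode (0.225 against 0.235) and with the intensity trend removed (0.228 against 0.237). With normexp it moved to tumour 1 (0.279 in tumour 2 against 0.318). Genes past the limma threshold, 0 in the report, numbered 132 with array weights, 123 with the slide as a random block, 115 with normexp, 69 of 131 with at least 3 probes and 48 with the intensity trend removed. Leaving out a tumour gave 0 to 125, with 125 without tumour 2 and 0 without tumour 1, 3 or 4. The cause was not tested. No focal segment appeared except 1 with penalty factor 1.5 and deviation 0.1 together, added after seeing the data. Called bins of tumour 3 became 7 with normexp and 15 at a threshold of 0.1. Those of tumour 2 became 8 with centring on the mode. At a threshold of 0.3 tumours 1, 2 and 4 kept 0, 3 and 0 bins.

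The Myc probe averaged -0.080 with normexp, which starts from raw signals. Signs also turned in small differences and in genes of low value. The Myc bin minus the rest of the block became 0.0090 with normexp and 0.0043 with medians, and lay between -0.017 and -0.0074 with a tumour left out. Block minus proximal part became -0.0025 with the intensity trend removed and -0.0017 with the GC trend removed, and ranged from -0.0020 to 0.0065 with a tumour left out. Block minus distal part ranged from -0.035 to 0.0097. Turning the sign of tumour 1 gave -0.0028 for AK148391, -0.094 for Zhx1 and -0.055 for 0910001A06Rik, and turning tumour 4 gave -0.040 for AK148391. Zhx1 became -0.00031 with centring on the mode and -0.16 with normexp, and -0.050 to 0.078 with a tumour left out. Atad2 became 0.036 with array weights, 0.046 without the intensity trend, 0.037 with medians and 0.030 without the GC trend, and ranged from -0.054 to 0.057. AK145655 became 0.093 with medians. The causes were not tested.

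No paired analysis was possible because all tumours form 1 group and their numbers are in accession order. Probe noise limits the finest readings, with a standard error of 0.036, 0.11, 0.044 and 0.046 for an 11-probe window in tumours 1 to 4.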
